A study of Oryza sativa with 6 samples.

Results

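Among the gene loci of the rice cultivar N22, 123 carried more than 5 isoform models while their average expression stayed under 1000 CPM (CPM, counts scaled to a common library total). Loci were read from the identifiers, in which the part before the semicolon names the locus and the part after it names the isoform model. The N22 transcriptome held 13343 gene loci, and 13225 of these had the B identifiers that TAMA, a tool that merges overlapping long-read transcripts along a reference genome, had given. Of the B loci, 147 had more than 5 models, and 24 of them were left out because their mean over the 6 libraries reached 1000 CPM. The 123 loci were 0.930% of the B loci and carried 1220 isoform models, which was 6.49% of all B models. Neither limit used a difference between conditions. Just inside the expression limit were B1146 at 994 CPM and B13205 at 991 CPM, and just outside it were B13213 at 1012 CPM and B7204 at 1043 CPM.

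The RNA came from developing seeds of N22, a rice cultivar of the aus subgroup, grown in a field of the International Rice Research Institute during a dry season. The 3 control samples came from fully flooded plants and the 3 stressed samples from plants that met heat combined with drought in early grain filling, under a rainout shelter. The study describes the 3 samples of a condition as biological replicates, and both conditions share the cultivar, the field site and the tissue. Total counts lay between 20623937 and 24625001 per library. The reads were assigned to models that had been built from pooled N22 RNA of several organs and conditions, so a model need not come from the seed. The files do not pair the B identifiers with gene names, and for that reason loci are given by identifier and without a function. The labelled tissue could not be checked against marker genes for the same reason.

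A locus can produce several transcripts when introns are spliced differently, when an intron is retained, or when transcription starts or ends at another position. Such isoforms can encode different proteins, change the stability of the transcript or carry a premature stop codon, and in plants heat and drought are known to alter splicing patterns. Long-read sequencing reads a transcript from end to end and so lists many models per locus, among them truncated copies. Short reads then have to be shared out among models that differ in a few exons only, and the share of a model is an estimate from those reads.

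By a limit on their share of the locus, most of the listed isoform models were not in use in developing seeds. A model was taken as in use when it held at least 5% of the TPM of its locus (a transcript abundance that is corrected for transcript length and scaled to the library) in the mean of a condition. By this measure 390 of the 1220 models were in use, which is 32.0%, against 80.6% of the models in the 3147 B loci with 2 to 5 models, which were taken at any level of expression. The limit is a share of the locus, so it is harder for a model to reach where many models are listed. The comparison with the loci of 2 to 5 models does not correct for that. At a limit of 1% there were 509 models in use, and at 10% there were 319. At the limit of 5% the median was 3 models in use per locus. A single model was in use in 10 loci, 2 models in 33, 3 models in 31, 4 models in 31, 5 models in 13, 6 models in 4 and 8 models in 1. In all 6 libraries 442 models (36.2%) were at 0, compared with 635 of 7364 models (8.62%) in the loci with 2 to 5 models. The models at 0 had a median length of 1024 bp and the other models one of 1268.5 bp, within a range of 124 to 4236 bp.

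The number of models in use, which the limit of 5% bounds, varied little with the number listed. The 71 loci with 6 or 7 models and the 52 loci with 8 or more models both had a median of 3 models in use. In the first of these classes 23.5% of the models were at 0 in every library, and in the second 43.8%. Across the 123 loci, Spearman's rho between listed models and models in use was -0.07, and between listed models and mean CPM it was 0.16. These are descriptions across loci that share the same 6 libraries. The 78 B loci with exactly 5 models, just outside the rule, also had a median of 3 models in use, as did the 42 loci with 6 models just inside it.

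**Figure D1:**
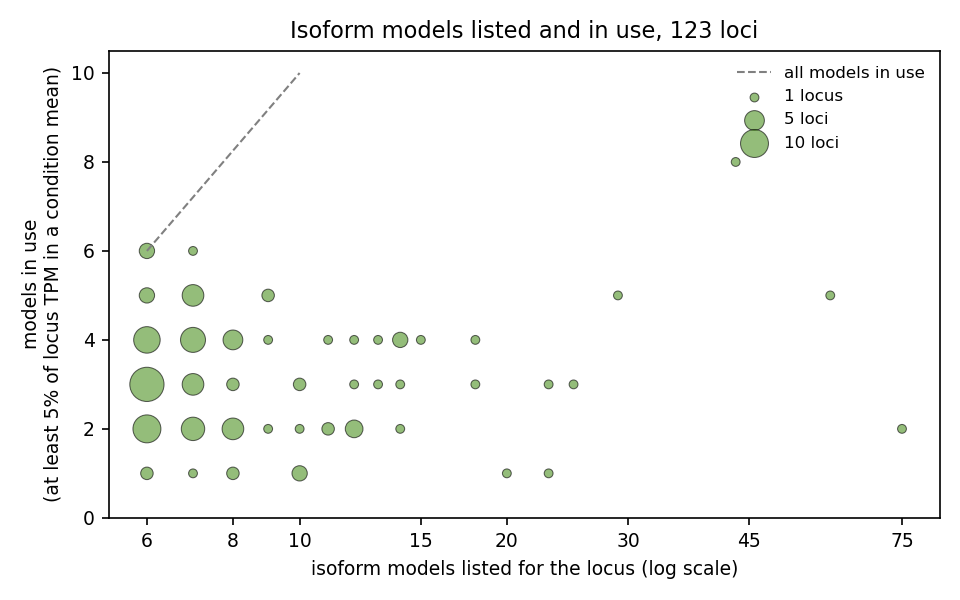
Isoform models listed for each of the 123 loci (horizontal axis, log scale) against the number of models that held at least 5% of the locus TPM in a condition mean (vertical axis). The area of a circle gives the number of loci at that position and the dashed line marks loci in which every listed model was in use; the locus with 75 models had 2 in use and the locus with 43 models had 8.

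The loci with the most models showed how few of them carried the expression. B12110 had 75 models, of which 46 were at 0 in every library and 2 were in use. Its model B12110.5 (1551 bp) held 72.9%, 71.4% and 70.2% of the locus TPM in the control libraries and 70.2%, 71.2% and 76.4% in the stressed libraries. The short model B12110.75 (499 bp) held 16.9%, 22.8% and 20.2% in the control libraries and 12.9%, 11.5% and 6.36% in the stressed libraries. The shares of the first model overlapped between the conditions, whereas those of the second did not, and the locus was not called for isoform usage. B12531 had 59 models with 34 at 0, and its most abundant model, B12531.12 (884 bp), held between 45.2% and 50.01% in every library. B3337 had 25 models with 17 at 0, and B3337.22 (1395 bp) held between 86.1% and 93.3%. B929 had 43 models and 8 of these were in use, more than in any other of the 123 loci. Its leading model by mean share, B929.30 (262 bp), held 16.8%, 50.8% and 11.1% in control and 31.7%, 15.7% and 10.49% in stress. The conditions overlapped. B929.5 (996 bp) held more than B929.30 in control replicate 3 (25.3%) and in stress replicates 2 and 3 (21.5% and 19.3%). By counts B929.14 (1964 bp) was above B929.30 in every library.

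**Figure D2:**
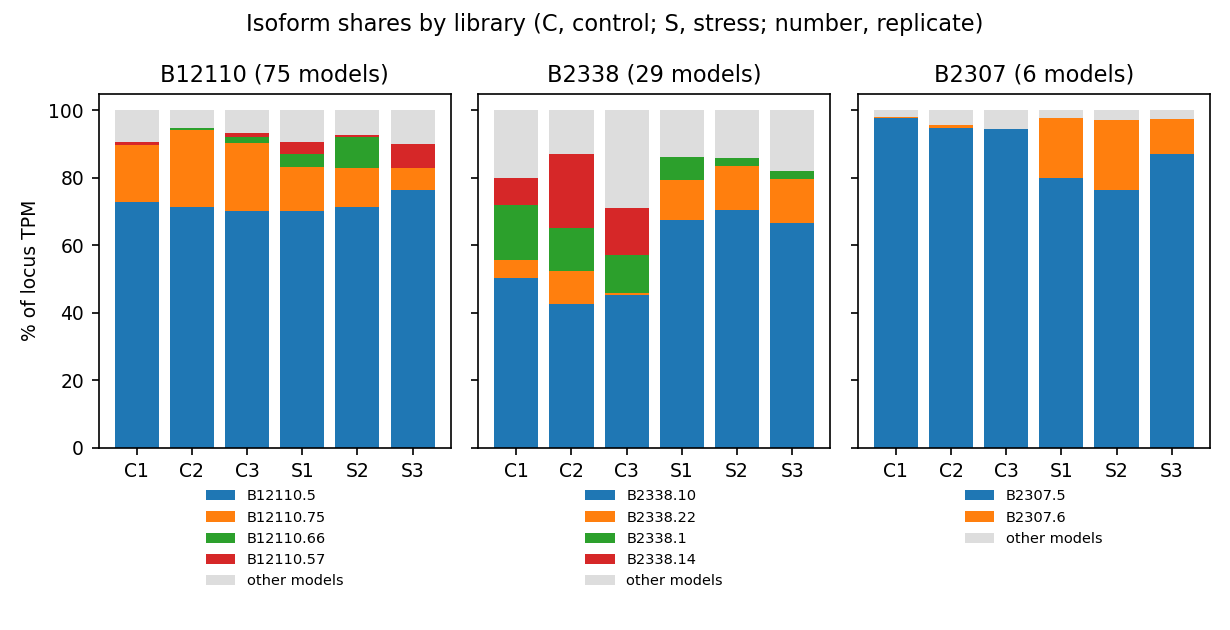
Share of the locus TPM (vertical axis, percent) taken by the leading isoform models of B12110, B2338 and B2307 in each library; C is control, S is stress and the number is the replicate. B12110.5 held 70.2% to 76.4% throughout, B2338.10 held 42.8% to 50.5% in the control libraries and 66.5% to 70.6% in the stressed libraries, and B2307.6 held under 1% in the control libraries.

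The most abundant model of a locus, here called the dominant model, held a median of 56.5% of the locus TPM in control and 54.7% in stress. It was chosen by its mean share over all 6 libraries. The median dominant share over the 123 loci was 55.9%, 57.8% and 55.8% in the control libraries and 55.4%, 56.0% and 52.7% in the stressed libraries. The SD of these medians was 1.11 percentage points for control and 1.76 for stress (n = 3), and the libraries of both conditions overlapped. In the loci with 2 to 5 models the medians were 81.8% ± 0.514 and 81.6% ± 0.779 (SD, n = 3). The effective number of isoforms, which is the number of equally abundant models that would give the same evenness, had a median of 2.08 ± 0.0568 in control and 2.12 ± 0.0817 in stress (SD, n = 3), compared with 1.42 and 1.41 in the loci with 2 to 5 models.

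The 123 loci differed widely in their dominant share. The mean over the libraries ran from 22.8% to 100%, with quartiles of 43.3% and 74.5%. In 20 loci (16.3%) the dominant model held over 90%, and in 48 loci (39.0%) it held under 50%. In the loci with 2 to 5 models these proportions were 34.2% and 3.33%. With more models a smaller leading share is possible, and the 78 loci with 5 models had a median of 65.0% against 52.1% in the 42 loci with 6 models. At the upper end were B10642.1 (1695 bp), at 99.9975% or more in every library, and B13185.7 (251 bp), at 99.5% to 99.8%. At the lower end, besides B929, was B11837, in which each of the 6 models was in use. Its leading model B11837.6 (2043 bp) held 29.3%, 32.3% and 13.2% in the control libraries and 28.7%, 27.96% and 35.6% in the stressed libraries, which overlapped.

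The dominant model was often not the longest one. It was the longest model in 39 of the 123 loci (31.7%) and the shortest in 12 (9.76%), against 54.1% and 36.5% in the loci with 2 to 5 models, where fewer models leave fewer positions in the order. The dominant models had a median length of 1275 bp, the longest models of the same loci one of 1694 bp, and the median ratio was 85.8%. Averaged over a locus with TPM as the weight, the transcript length was 77.6% to 80.1% of the longest model in the control libraries and 78.3% to 78.9% in the stressed libraries (medians over the loci). The range of the stressed libraries lay inside that of the control libraries.

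Very short models led in some loci by TPM. The dominant model was under 300 bp in 6 of the 123 loci, among them B929, B13185 and B13205. In B13205 the model B13205.6 (174 bp) held 72.5%, 78.5% and 89.6% of the locus TPM in control and 87.6%, 85.9% and 80.7% in stress, which overlapped. Its counts were 5130, 10459 and 7991 in control and 14991, 8279 and 6423 in stress. B13205.2 (468 bp) had more counts in control replicates 1 and 2 (5457 and 11535). B13205.5 (322 bp) had more in stress replicate 3 (6869). The longer model B13205.10 (534 bp) had 7186, 7797 and 2026 counts in control and 573, 4411 and 2646 in stress, fewer than the short model in all libraries but control replicate 1. TPM divides by the effective length, which for most models was shorter than the model by about a read length, so it weights a model of this size heavily. When counts were used in place of TPM, another model was dominant in 23 of the 123 loci.

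No dominant share was called as changed between control and stress. The ratio of the dominant model to all other models of the locus was tested with limma on log2(TPM + 0.5) for 121 loci, and the smallest adjusted p was 0.214. Over all 3210 loci tested 0 were called (0.00%), and at an unadjusted p under 0.05 there were 11 of the 121 loci (9.09%) against 12.6% of all loci tested. The libraries of the conditions did not overlap in 19 of the 121 loci (15.7%, background 12.0%), of which 6 had a higher share under stress (background 5.70% of all loci) and 13 a lower one (background 6.32%). These differences ran from 0.625 to 22.03 percentage points in the loci with a higher share and from 2.69 to 38.7 percentage points in those with a lower share. The median size of the change was 4.08 percentage points. The median SD between single libraries was 5.56 percentage points in control and 4.79 in stress. In the loci with 2 to 5 models the median size was 3.54 percentage points. The mean share was lower under stress in 71 loci and higher in 49.

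**Figure D3:**
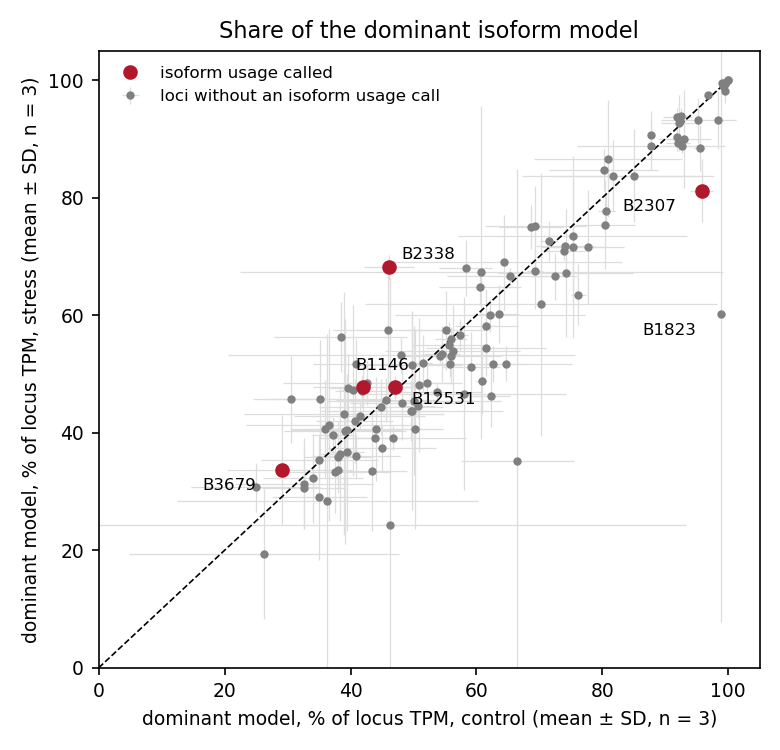
Share of the dominant isoform model in control (horizontal axis) and stress (vertical axis) as percent of the locus TPM, with means and SD over 3 libraries (1 locus had a value in only 2 stressed libraries). The dashed line marks equal shares and red points are the 5 loci called for isoform usage; B2338 (46.1% to 68.2%) and B2307 (95.8% to 81.2%) lie off it.

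The smallest p-values for the dominant share belonged to B2338 for a gain and to B1823 for a loss. The share of B2338.10 (1853 bp) was 50.5%, 42.8% and 45.2% in the control libraries and 67.4%, 70.6% and 66.5% in the stressed libraries. These values did not overlap and differed by 22.03 percentage points, but the adjusted p of limma over all loci was 0.214. The share of B1823.7 (1305 bp) was 99.4%, 98.97% and 98.3% in the control libraries and 84.5%, 0.00% and 96.2% in the stressed libraries. The adjusted p of limma was again 0.214. The stressed library at 0.00% had 15 counts in the whole locus, of which B1823.3 took 7 and B1823.6 took 8. Such a count allows up to 3 counts, or 20% of the locus, for a model listed at 0. The other stressed libraries had 80 and 55 counts, and the control libraries 757 to 1086.

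More loci were called for isoform usage than for the dominant share, but by another method and from counts in place of TPM. With limma-voom in place of edgeR, 0 of these loci were called for usage as well. The usage test (diffSpliceDGE of edgeR, Simes p-values per locus) asks whether any model of a locus changes by a factor other than the rest of the locus. Of 116 loci tested, 5 were called at an adjusted p under 0.1, which is 4.31% against 0.755% of the 2517 loci tested. The called loci were B1146, B3679, B2307, B12531 and B2338. At an unadjusted p under 0.05 there were 8 loci (6.90%, background 2.38%). A locus with more models gives the test more comparisons, for which the Simes p allows, and the median was 4 tested models per locus here. Abundance differed too, with a median of 125 CPM against 34.0 CPM in the loci with 2 to 5 models. The part of either in the number of calls was not tested. Of 490 single models tested 6 were called (1.22%, background 0.358%), of which 2 were relatively higher under stress (background 0.137%) and 4 relatively lower (background 0.222%). In each called locus except B2338 and B2307, the libraries of the conditions overlapped in the share of the dominant model.

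In B2307 a second isoform rose beside the dominant one under stress. The counts of B2307.6 (1294 bp) were 18, 97 and 0 in the control libraries and 802, 1267 and 566 in the stressed libraries. As shares of the locus TPM these were 0.148%, 0.855% and 0.00% in control and 17.7%, 20.7% and 10.3% in stress, with no overlap. The dominant model B2307.5 (1800 bp) held 97.8%, 94.9% and 94.6% in control and 79.9%, 76.5% and 87.2% in stress, also with no overlap, although its share was not called (limma adjusted p = 0.214). Relative to the rest of the locus B2307.6 rose by 4.001 on the log2 scale (edgeR adjusted p = 0.00774 for the model and 0.0166 for the locus). The locus as a whole had 638 ± 49.3 CPM in control and 397 ± 48.0 CPM in stress (SD, n = 3), a log2 fold change of -0.69 ± 0.16 (SE, adjusted p = 0.00989) that did not reach the fold change limit of 1. Its usage call stood in each of the 6 fits that left out 1 library, but the locus was not called with a replicate block, with models of at least 10 counts in every library or with limma-voom.

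In B3679 and B2338 a model with counts in every control library was at 0 under stress. B3679.4 (1624 bp) had 255, 541 and 181 counts in control and 0, 0 and 0 in stress (edgeR adjusted p = 0.000997 for the model and 0.00321 for the locus). Its share of the locus TPM in control was 13.0%, 24.2% and 6.003%. At the depth of the stressed libraries a count of 0 allows up to 0.45%, 0.355% and 0.336% of the locus counts. The dominant model of this locus, B3679.5 (660 bp), overlapped between the conditions at 19.9% to 37.2% and 23.2% to 40.4%. B2338.14 (1459 bp) had 158, 396 and 381 counts in control and 0, 0 and 0 in stress (edgeR adjusted p = 0.0227 for the model and 0.0646 for the locus), where a count of 0 allows up to 0.326%, 0.324% and 0.262%. In the same locus B2338.1 (3197 bp) held 16.2%, 12.5% and 11.3% of the TPM in control and 6.82%, 2.39% and 2.21% in stress, and this model was not called. B2338.22 (3409 bp), also not called, had 5.31%, 9.76% and 0.749% in control and 11.9%, 12.9% and 13.2% in stress. The counts of B2338 summed to a whole number (within 0.1) in 1 of the 6 libraries, which means that some of its reads were shared with other loci.

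B1146 and B12531 were called for models that held small shares. B1146.5 (3003 bp) had 1243, 784 and 170 counts in control and 0, 2 and 0 in stress (edgeR adjusted p = 2.67e-05), and B1146.6 (3151 bp) had 2088, 575 and 345 counts in control and 0, 7 and 0 in stress (edgeR adjusted p = 6.74e-06). The 3 most abundant models of this locus had the same order of mean shares in both conditions. B1146.4 (1749 bp) held 38.8%, 36.1% and 51.2% in control and 49.1%, 51.3% and 43.2% in stress, and B1146.1 (3384 bp) held 28.9%, 28.5% and 18.05% in control and 30.2%, 25.7% and 33.6% in stress. B1146.7 (1990 bp) held 15.2%, 17.1% and 18.6% in control and 13.7%, 14.3% and 14.8% in stress. Its shares did not overlap between the conditions, and it was not called. The other call was for B12531.2 (1839 bp), with 4, 0 and 0 counts in control and 140, 390 and 283 in stress (edgeR adjusted p = 0.00868 for the model). It held 1.71%, 4.34% and 2.74% of the locus TPM under stress, so it stayed under the 5% for a model in use.

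**Figure D4:**
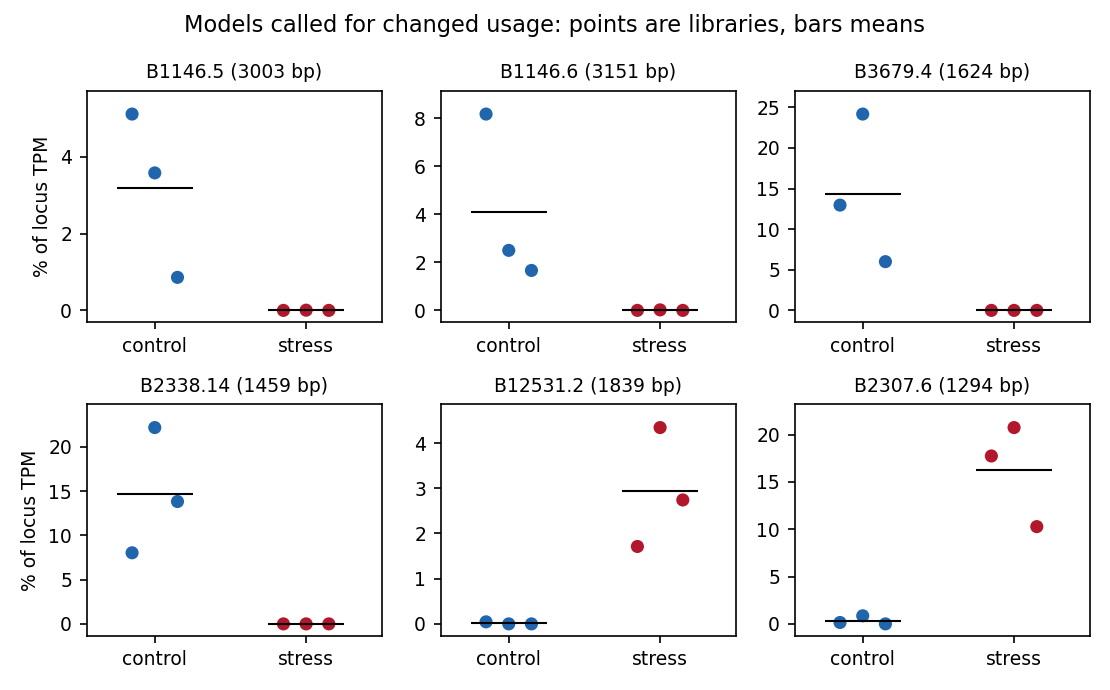
Share of the locus TPM (vertical axes, percent, each with its own scale from 0) of the 6 isoform models called for changed usage, with points for the libraries and bars for the means. B1146.5, B1146.6, B3679.4 and B2338.14 are at or near 0 in the stressed libraries, and B12531.2 and B2307.6 at or near 0 in the control libraries.

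The counts of single models often differed between replicates, and the usage calls depended on the set of libraries and on the filter. Among models of the 123 loci with at least 100 counts in some library, 77 of 442 (17.4%) had at least that number in a replicate and under 1 count in another replicate of the same condition. In the loci with 2 to 5 models this held for 374 of 5225 models (7.16%). The limits of this count were chosen after the data were seen. At least 100 counts in every control library and under 1 in every stressed library were found for 2 models only, B3679.4 and B2338.14, and the reverse for 0 models. In the loci with 2 to 5 models they were found for 1 model and for 0 models. When 1 library was left out in turn, B1146, B3679 and B2307 were called in each of the 6 fits, but B12531 and B2338 in only 1 of 6. With models that had at least 10 counts in every library, a filter that removes models at 0 in one condition, 0 loci were called, and 0 were called with limma-voom in place of edgeR.

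In 15 of 122 loci (12.3%) the most abundant model of control was another one than that of stress, compared with 261 of 3113 loci (8.38%) with 2 to 5 models. The count depended on the unit: from estimated counts it was 6 loci, 5 of them among the 15. Of the 15 loci 14 were tested for isoform usage by diffSpliceDGE, and 0 of these were called. A mean of at least 10 CPM was found in 13. Among these 13 the change was largest in B10626, in which B10626.1 (1883 bp) held 61.8%, 55.9% and 45.5% in control and 14.8%, 30.7% and 37.8% in stress, while B10626.2 (1762 bp) held 28.5%, 37.4% and 49.4% in control and 63.3%, 52.7% and 52.9% in stress. Both models were non-overlapping (two-sided exact permutation p = 0.1, the smallest that 3 against 3 allows), and the adjusted p of the locus was 0.9999 by diffSpliceDGE. In B4172 the model B4172.2 (801 bp) held 48.3% ± 16.3 in control and 27.3% ± 9.13 in stress, and B4172.1 (1018 bp) held 30.5% ± 3.87 and 45.7% ± 7.39 (SD, n = 3). The first of these overlapped between the conditions and the second did not. In B11248 the model B11248.6 (674 bp) held 40.5% ± 10.2 in control and 23.0% ± 8.74 in stress (SD, n = 3), without overlap, and the model that led under stress, B11248.1 (1760 bp), itself had 35.1% ± 7.60 in control and 29.1% ± 10.7 in stress. B4731 was singled out after its values were seen, for its small replicate spread, a choice that favours groups without overlap. Its model B4731.2 (786 bp) held 63.2%, 58.98% and 64.7% in control and 46.7%, 51.4% and 40.8% in stress, and B4731.1 (587 bp) held 36.8%, 38.7% and 33.2% in control and 48.0%, 46.0% and 53.7% in stress. Neither model overlapped between the conditions, and the locus was not called for usage (edgeR adjusted p = 0.9999).

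The number of models in use was similar in both conditions. It summed to 355 over the 123 loci in control and to 368 in stress. The number was the same in 85 loci, higher under stress in 25 and lower in 13. The median was 3 per locus in either condition.

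Of the 123 loci, 9 rose and 7 fell in expression under stress. Without control replicate 2 there were 15 higher and 7 lower. Of the 121 loci tested, 16 were called in the quasi-likelihood test of edgeR, with limits of 0.1 for the adjusted p and 1 for the size of the log2 fold change. This is 13.2% against 10.03% of all 12726 loci tested. Calls were higher under stress in 9 loci (background 4.80% of all loci) and lower in 7 (background 5.23%). At the adjusted p alone there were 65 loci (53.7%, background 38.6%), 36 of them higher and 29 lower. The CPM of the conditions did not overlap in 69 loci (57.0%, background 45.7%), 37 of them higher (background 23.1%) and 32 lower (background 22.7%). The median log2 fold change was 0.05 (-0.02 over all loci tested) and the median size was 0.46 (0.32 over all loci tested). These loci were also more abundant, with a median of 125 CPM (quartiles 41.0 and 324) against 34.0 CPM in the loci with 2 to 5 models, and the part of the abundance in the counts of calls was not tested. The TMM factors were 1.10 to 1.20 in the control libraries and 0.842 to 0.904 in the stressed libraries and did not overlap. With library size alone as the scaling, 21 loci were called, with 4 of them higher under stress and 17 lower. Under this scaling the median over all loci tested moved from -0.02 to -0.40 on the log2 scale. In whole seeds, fewer cells of a type and less RNA per cell cannot be told apart.

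The called loci had 6 to 29 models and a mean of 17.7 to 994 CPM. Among them, B1968 (12 models) and B3770 (7 models) had the largest rise. B1968 had 9.07, 9.33 and 7.56 CPM in control and 24.1, 35.6 and 23.3 CPM in stress, a log2 fold change of 1.68 ± 0.18 (SE, edgeR adjusted p = 0.000195). Some of its 4 models in use varied strongly between replicates. For example, B1968.9 (1659 bp) had 99, 0 and 51 counts in the control libraries, whereas B1968.7 (2221 bp) had 113, 155 and 108. B3770 had 424, 436 and 217 CPM in control and 1635, 976 and 654 CPM in stress, a log2 fold change of 1.6 ± 0.37 (SE, edgeR adjusted p = 0.0138). Its dominant model B3770.1 (1300 bp) held 91.4% to 93.0% in control and 92.4% to 94.0% in stress, so the expression of this locus rose with nearly the same isoform shares.

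The largest fall was measured for B1823 (7 models) and B10996 (12 models). B1823 had 28.1, 29.8 and 40.2 CPM in control and 4.47, 0.795 and 2.95 CPM in stress, a log2 fold change of -3.59 ± 0.46 (SE, edgeR adjusted p = 0.00181). B10996 had 349, 456 and 692 CPM in control and 127, 155 and 186 CPM in stress, a log2 fold change of -1.68 ± 0.25 (SE, edgeR adjusted p = 0.00127). Its dominant model B10996.7 (1097 bp) held 97.5%, 98.8% and 99.04% in control and 87.7%, 95.3% and 96.8% in stress. These shares did not overlap, and the adjusted p of limma was 0.286. The short model B10996.10 (590 bp) had 33, 0 and 0 counts in control and 127, 58 and 35 counts in stress, while the counts of the locus fell. This model was not called for usage (edgeR adjusted p = 0.9999).

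**Figure D5:**
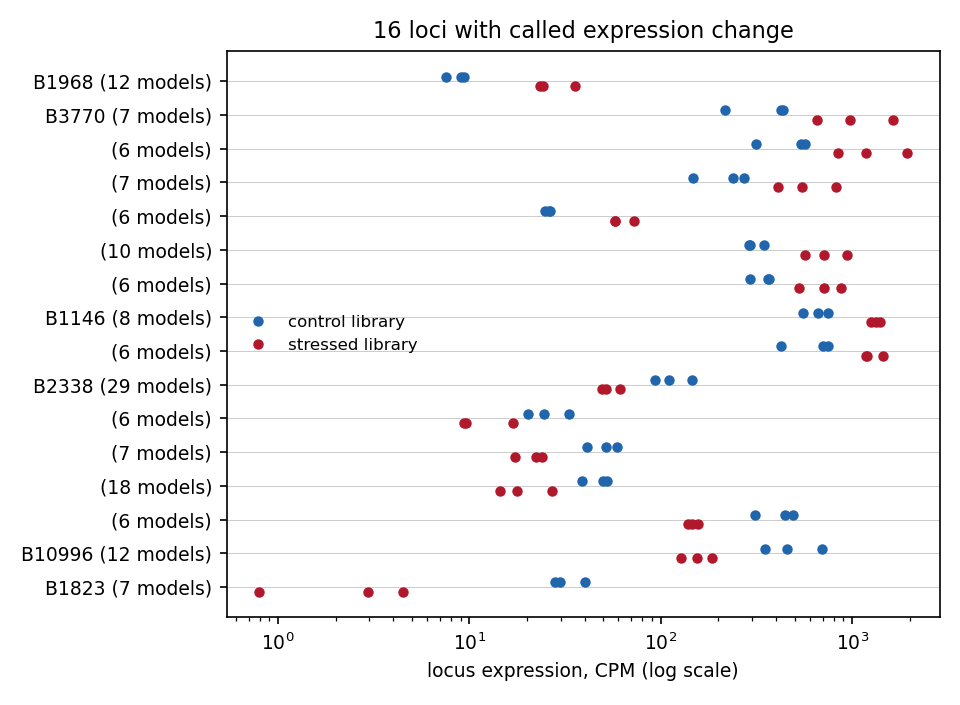
Locus expression in CPM (horizontal axis, log scale) in each library of the 16 loci called for expression, ordered by log2 fold change, with the number of isoform models in parentheses and the identifier for the loci named in the text. In all 16 loci the control and stressed libraries do not overlap; 9 loci are higher and 7 lower under stress.

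Calls for expression and for isoform usage met in 2 loci, B1146 and B2338. B1146 had 746, 665 and 550 CPM in control and 1339, 1261 and 1403 CPM in stress, a log2 fold change of 1.03 ± 0.18 (SE, edgeR adjusted p = 0.00205). B2338 had 110, 93.0 and 146 CPM in control and 51.4, 49.1 and 61.5 CPM in stress, a log2 fold change of -1.11 ± 0.17 (SE, edgeR adjusted p = 0.00113). Both lie near the fold change limit. The log2 fold change of B1146 was 0.91 without control replicate 3, 0.99 without stress replicate 3 and 0.66 with library size alone, and that of B2338 was -0.92 without control replicate 3, each below the limit. Of the 16 loci called for expression, 14 had a change of the dominant share under 10 percentage points. Across all the loci described here, the 10th and 90th percentiles of this change were -8.46 and 5.84 percentage points, so most were under 10 as well. Whole-number locus counts (within 0.1) in every library were found in 14 of the 16. Over the 123 loci 94 (76.4%) had such counts, compared with 87.3% of the loci with 2 to 5 models, and the other loci shared reads with loci elsewhere. For 104 of the 123 loci no change of any kind was called, and 2 of these had under 1 CPM and were not tested for expression.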

How the data were processed

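The authors assigned single-end reads with kallisto 0.45 to their N22 long-read transcriptome and deposited estimated counts and TPM per isoform model. Locus counts were sums over models, rounded to whole numbers. They equalled the locus table that the authors deposited. Whether strand was used in the assignment is not given in the sources used here. Locus expression was tested with edgeR 4.0.16 in R 4.3.3 (TMM, filterByExpr with a minimum count of 10, quasi-likelihood), isoform usage with diffSpliceDGE, and the dominant share with limma 3.58.1 on log2 TPM ratios with a pseudocount of 0.5, for loci with a mean of at least 1 TPM. p-values were adjusted (Benjamini-Hochberg) over all loci tested, with calls at an adjusted p under 0.1 and, for expression, a log2 fold change of 1 or more in size. All 6 libraries entered each fit without covariates. Alternatives were DESeq2 1.42.0, other scalings, filters, pseudocounts and units, a replicate block and leaving out each library. Named loci other than B4731 followed a rule on the number of models, the size of change, the smallest p and the highest or lowest dominant share. The members and lists were chosen with earlier results of these data known. A count of 0 was taken to allow 3 counts, which covers counting error only. The main form of each fit was also run on simulated counts with known changes. The simulation drew the counts of each model independently, without reads shared among similar models. No sequences were used here.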

Additional observations from a re-analysis of the deposited data

How the results depend on the processing

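The counts of isoform usage calls moved most with the processing. In place of 5 calls there were 3 with the gene-level F test of diffSpliceDGE, 0 with models of at least 10 counts in every library (4 at an unadjusted p under 0.05) and 0 with limma-voom and diffSplice (16 at an unadjusted p under 0.05, and 1 call over all loci). They ranged from 3 to 6 when 1 library was left out, with 3 without stress replicate 1. The cause was not tested, except that the stricter filter removes models at 0. The expression calls were 65 at the adjusted p alone and ranged from 12 (without control replicate 3) to 22 (without control replicate 2). Among the loci described here, the dominant share had 0 calls under every alternative run. Over all 3210 loci tested, it had 37 calls with estimated counts in place of TPM and 4 with a pseudocount of 1 TPM. Leaving out a library gave 11 without control replicate 1, 5 without stress replicate 2 and 1 without control replicate 3. The main fit and the other alternatives gave 0 over all loci tested. From estimated counts, which give long models more weight than TPM does, the median dominant share was 61.7% in control and 59.9% in stress, the dominant model was another one in 23 loci, and 6 loci had another most abundant model under stress, 5 of them among the 15 by TPM. With the loci of 1000 CPM or more included, the medians were 59.0% and 57.8%, and the effective number in control was 1.996. With library size alone the expression calls moved from 9 higher and 7 lower to 4 higher and 17 lower. Single changes were followed for the named loci called for expression, the models called for usage and the dominant ratios of B2338 and B1823. Of these changes 0 reversed, but a call was lost in 14 single comparisons, and in 150 the outcome stayed the same. Each of the 6 models called for usage lost its call with limma-voom. For a model at 0 in every library of a condition, a reversal was hardly possible. Whether the replicate numbers pair the samples was not settled. The deviations of same-numbered libraries correlated at 0.19, 0.03 and 0.26, and those of libraries with different numbers at -0.26 to 0.11. Every library except control replicate 2 correlated best with its own number. With a replicate block there were 16 expression calls, 0 dominant share calls and 2 usage calls (B1146 and B3679). Loci of few counts limit the shares most, since a count of 0 in 15 counts allows a share of up to 20%.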

Other observations

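The loci with many models clustered in the identifiers, a pattern noticed after the data were seen. Of the 46 loci from B13180 to B13225, the last identifiers of the list, 15 had more than 5 models (32.6%), compared with 1.11% of all B loci, and 7 of them were among the 123 loci described here. In 5 of these 7 the dominant model held over 90% of the locus TPM. Their dominant models were 174 to 1045 bp long, and 3 of them were under 300 bp, out of 6 such loci among the 123. Whole-number locus counts in all 6 libraries were found in 0 of the 7, so each shared reads with other loci in at least 1 library. Their log2 fold changes ran from 0.34 to 1.02, all above 0, with a lowest adjusted p of 0.0666 by edgeR, and 0 were called. The common sign rests on the TMM scaling, since with library size alone the median over all loci tested moved from -0.02 to -0.40. Whether these loci shared reads with each other was not tested.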
